A study of Homo sapiens with 6 samples.

Results

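The 10 genes described here, DUSP4, DUSP5, DUSP6, SPRY1, SPRY2, SPRY4, SPRED1, SPRED2, ETV4 and ETV5, form a feedback set of the RAS–ERK pathway. They were taken by name from a table of 63140 genes, and all 10 were present and had enough counts to be among the 14386 genes tested. RNA-seq had been run on 3 libraries of NOZ-R cells and 3 libraries of NOZ cells. NOZ cells are an established line from a human cancer of the gallbladder, and NOZ-R was derived from them by stepwise escalation of the dose of gemcitabine, a nucleoside analogue. The sources used here do not say whether NOZ-R is a clone or a mixed population, whether the drug was present at harvest, or whether the 3 libraries of a line came from separate cultures. The p-values therefore reflect library-to-library spread alone, and that spread may be technical.

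ERK is the last kinase of a cascade that runs from receptor tyrosine kinases through RAS, RAF and MEK. Active ERK drives transcription of its own brakes: dual-specificity phosphatases that remove the activating phosphates from ERK, and Sprouty and SPRED proteins that restrain the step between receptor and RAF. It also raises the PEA3-group ETS transcription factors, to which ETV4 and ETV5 belong. Transcripts of these genes are widely used as a readout of ERK output in tumour cells, including epithelial cancers with RAS pathway mutations. Here transcripts alone were measured, not ERK phosphorylation.

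Total counts lay between 14136037 and 19244923 per library, and replicates of a line correlated at r of 0.991 to 0.993 across genes. NOZ replicate 2 stood apart, with a mean chi-square per gene of 10 and 8.84 against NOZ replicates 1 and 3, whereas those differed from each other by 2.13. Its deviation from its line's mean had a rank correlation across genes with transcript GC content of -0.527, against 0.342 and 0.393 for NOZ replicates 1 and 3. For NOZ-R replicates 1, 2 and 3 the values were 0.318, -0.064 and -0.233. Deviations from a line's mean sum to 0, so the values within a line are not independent. The 6 epithelial markers summed to 3073 to 3163 CPM (counts scaled to the library total) in NOZ-R and 2398 to 2895 CPM in NOZ, carried by keratins, while CDH1 averaged 0.290 CPM in NOZ-R and 1.03 CPM in NOZ. Fibroblast markers summed to 6.45 to 6.84 CPM in NOZ-R and 3.22 to 3.75 CPM in NOZ, leukocyte markers to 3.96 to 5.25 CPM in NOZ-R and 3.36 to 5.98 CPM in NOZ, and endothelial markers to 8.70 to 9.67 CPM in NOZ-R and 2.49 to 2.81 CPM in NOZ. PECAM1 made up most of the endothelial sum, at 9.21 CPM in NOZ-R and 1.87 CPM in NOZ. No marker was at 0 in all libraries, but 4 of 7 fibroblast, 3 of 6 leukocyte and 3 of 4 endothelial markers never exceeded 15 counts. The part of these markers in the results was not tested. In bulk RNA, fewer expressing cells and less RNA per cell cannot be told apart.

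The feedback genes did not move as a block between the lines. In NOZ-R, 5 of the 10 were lower (DUSP5, SPRY1, SPRY2, ETV4 and ETV5), 3 were higher (SPRY4, SPRED1 and SPRED2) and DUSP4 and DUSP6 did not pass the test. Calls are edgeR quasi-likelihood tests at 0.05 after Benjamini-Hochberg adjustment over all tested genes. They took in 60.2% of all tested genes, with 30.4% higher and 29.8% lower, so 8 calls among 10 genes stand against a background in which most genes passed. DUSP5 and SPRY2 fell by more than 2-fold, whereas 7.57% of tested genes were called and at least 2-fold lower. No member was called and at least 2-fold higher, as 8.96% of tested genes were. CPM ranges of the lines did not overlap for 8 of the 10, and for 65.3% of tested genes. The median log2 fold change of the 10 was -0.18, against -0.01 for all tested genes, and their median absolute log2 fold change was 0.37, against 0.39.

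**Figure D1:**
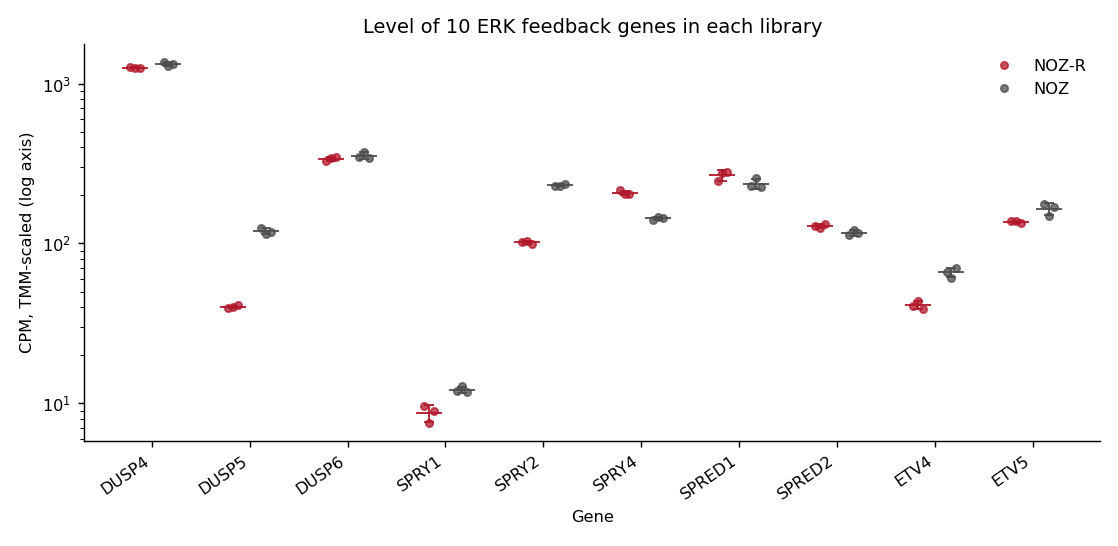
Level of each feedback gene in CPM on a log axis, with 1 point per library, NOZ-R left of NOZ; horizontal bars are means and error bars the SD of 3 libraries. DUSP5 and SPRY2 lie far below their NOZ values, SPRY4 lies above, and DUSP6 and SPRED1 overlap between the lines.

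Of the phosphatases, DUSP5 alone passed the test. DUSP5, a nuclear phosphatase specific for ERK, had 39.7, 40.1 and 40.9 CPM in NOZ-R, against 125.5, 115.1 and 118.5 CPM in NOZ. Every NOZ-R library lay below every NOZ library. The mean was 40.2 ± 0.618 CPM in NOZ-R and 119.7 ± 5.33 CPM in NOZ (SD, n = 3 each), which is 2.98-fold lower. On the log2 scale the difference was -1.57 ± 0.0641 (SE, adjusted p = 1.73e-10 by edgeR). DUSP5 lies on chromosome 10 (110497838 to 110511544, plus strand, GRCh38), whose 501 tested genes had a median log2 fold change of -0.58. The 21 tested genes within 5 Mb of DUSP5 had a median of -0.69, and their part in the result was not tested.

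DUSP4, a nuclear phosphatase of ERK and of the stress kinases JNK and p38, was the most abundant of the set per length, and lies on chromosome 8 (29333064 to 29350668, minus strand). It had 1268.5, 1246.5 and 1247.1 CPM in NOZ-R, against 1361.9, 1285.1 and 1326.6 CPM in NOZ. The libraries of the lines did not overlap, but the gap was small beside the spread within NOZ. The log2 fold change was -0.08, with a 95% interval of -0.17 to 0.02 (edgeR adjusted p = 0.139). Without NOZ replicate 2 it was -0.10 and was called (edgeR adjusted p = 0.0138).

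DUSP6, the cytoplasmic phosphatase specific for ERK (chromosome 12, 89347232 to 89353271, minus strand), had 325.9, 341.5 and 345.2 CPM in NOZ-R, against 345.7, 372.8 and 340.6 CPM in NOZ. The ranges overlapped. Its log2 fold change was -0.06, with a 95% interval of -0.18 to 0.05 (edgeR adjusted p = 0.317). An annotated antisense gene shares 1875 of the 4632 exon bases of DUSP6, and its own row held 3 to 9 counts per library. How reads in the shared bases were counted is not described, so that row cannot show how many came from either gene.

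Scaling also changed whether DUSP4 and DUSP6 were called. Where libraries were scaled by their total count alone, the median of all tested genes moved by -0.13 on the log2 scale. DUSP4 then stood at -0.21 (edgeR adjusted p = 0.000880) and DUSP6 at -0.19 (edgeR adjusted p = 0.00630). The same scaling gave 1 higher and 7 lower among the 10 feedback genes, and 3316 higher and 5468 lower among all tested genes. A correction for transcript GC content moved the median of all tested genes by -0.09. With it, 2 of the 10 were higher and 7 lower, and all tested genes split into 3824 higher and 5351 lower. DUSP4 was then at -0.23 and DUSP6 at -0.14 (edgeR adjusted p = 6.27e-05 and 0.0174). Of 19 alternative settings, DUSP4 gained a call as lower in 6 and DUSP6 in 5.

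**Figure D2:**
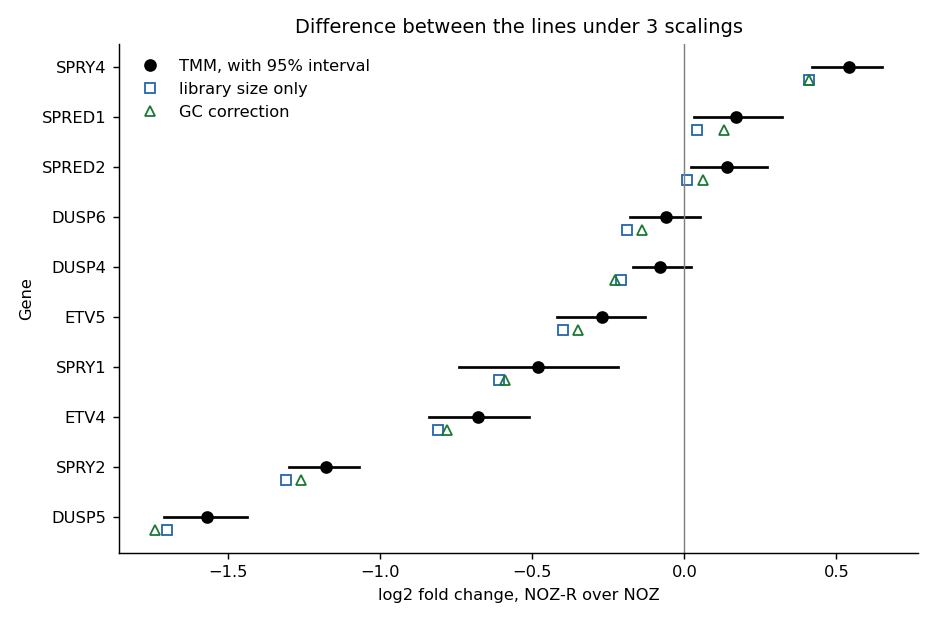
Log2 fold change of NOZ-R over NOZ for each feedback gene, sorted, as filled circles with 95% intervals from the edgeR fit with TMM scaling; open squares use library size alone and open triangles a GC correction. DUSP5 and SPRY2 lie below -1 and SPRY4 above 0 under all 3, while SPRED2 moves from 0.14 to 0.01 without TMM scaling.

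Sprouty transcripts changed in opposite directions. Sprouty proteins are induced by growth factor signalling and in most settings dampen the step from receptor to RAS and RAF. SPRY2 had 102.1, 103.8 and 99.3 CPM in NOZ-R, against 228.4, 229.3 and 235.4 CPM in NOZ. All NOZ-R libraries were below all NOZ libraries. SPRY2 was 2.27-fold lower, or -1.18 ± 0.0540 on the log2 scale (SE, adjusted p = 5.57e-10 by edgeR). SPRY2 lies on chromosome 13 (80335976 to 80340951, minus strand), whose 226 tested genes had a median of -0.37, and the 14 within 5 Mb had a median of -0.35. Their part in the result was not tested.

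SPRY4, which also acts upstream of RAF, was the member that rose most. Its levels were 215.1, 204.8 and 204.5 CPM in NOZ-R, against 140.1, 146.3 and 143.5 CPM in NOZ. The lines did not overlap. SPRY4 was 1.45-fold higher, or 0.54 ± 0.0540 on the log2 scale (SE, adjusted p = 1.42e-06 by edgeR). On chromosome 5 (142310427 to 142326455, minus strand) its 94 tested neighbours within 5 Mb had a median of 0.03.

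SPRY1 (chromosome 4, 123396795 to 123403760, plus strand) was the scarcest member per length and fell. It had 9.62, 7.56 and 8.98 CPM in NOZ-R, against 11.9, 12.8 and 11.8 CPM in NOZ, from 122 to 174 counts per NOZ-R library and 174 to 238 per NOZ library. Each NOZ-R value was below each NOZ value. The difference was -0.48 ± 0.120 on the log2 scale (SE, adjusted p = 0.00371 by edgeR), the widest error of the 10.

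Sequence upstream of a RefSeq start of each of these 3 Sprouty genes is shown because they are the paralogs that moved apart. RefSeq promoter entries (GRCh38.p14) matched 6 of the 10 members, and bases inside an annotated exon of the gene were left out, which for SPRY4 removed the bases nearest the start. For SPRY1 and SPRY2 the first of several listed starts was used. RefSeq starts need not match the GENCODE positions given above. The SPRY4 stretch lies inside the span given for SPRY4, and the SPRY2 start lies upstream of the span given for SPRY2. The stretches are chr13:80341127-80341376 on the minus strand for SPRY2, chr4:123396545-123396794 on the plus strand for SPRY1, and chr5:142324418-142324497 on the minus strand for SPRY4. Capitals mark matches to the motifs searched on both strands.
SPRY2: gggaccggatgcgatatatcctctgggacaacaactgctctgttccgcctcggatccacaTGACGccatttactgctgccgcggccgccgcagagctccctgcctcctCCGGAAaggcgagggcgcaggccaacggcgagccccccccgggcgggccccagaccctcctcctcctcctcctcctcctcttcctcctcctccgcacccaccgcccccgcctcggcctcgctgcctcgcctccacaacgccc
SPRY1: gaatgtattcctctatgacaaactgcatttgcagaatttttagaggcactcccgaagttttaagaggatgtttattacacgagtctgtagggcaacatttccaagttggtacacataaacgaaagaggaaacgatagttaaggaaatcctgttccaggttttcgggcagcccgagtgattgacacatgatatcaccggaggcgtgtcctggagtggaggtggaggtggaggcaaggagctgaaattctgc
SPRY4: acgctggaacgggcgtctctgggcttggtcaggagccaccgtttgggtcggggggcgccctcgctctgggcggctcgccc

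The motifs searched were CCGGAA, a core bound by ETS factors, TGACG, a core bound by CREB-family factors, TGACTCA, bound by AP-1, and TGAATGAA and TCAATGAA, bound by the repressor CIC. The SPRY2 stretch held CCGGAA at -142 to -137 and TGACG at -190 to -186 from its start, and the other 2 stretches held none of the 5. In the rest of the SPRY4 window TGACG lay at -68 to -64, and the second listed SPRY1 start had CCGGAA at -67 to -62. The other listed SPRY2 starts had none of the 5 motifs in their windows. Of 35116 RefSeq windows of 250 bases, 14.5% held CCGGAA, 21.2% TGACG, 4.203% TGACTCA, 1.40% TGAATGAA and 0.635% TCAATGAA. The motifs do not overlap each other in the SPRY2 stretch, which was 70.4% G and C, against 45.6% for SPRY1 and 73.75% for the shorter SPRY4 stretch. A match describes letters only, and gene counts do not show which of several starts was in use.

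SPRED1 (chromosome 15, 38252326 to 38357249, plus strand) and SPRED2 (chromosome 2, 65310851 to 65432637, minus strand), membrane proteins that bring the RAS inactivator neurofibromin to RAS, changed least among the genes called. SPRED1 had 243.9, 274.5 and 280.7 CPM in NOZ-R, against 227.2, 256.5 and 224.2 CPM in NOZ. The ranges overlapped, since NOZ-R replicate 1 lay below NOZ replicate 2. The difference was 0.17 ± 0.0689 on the log2 scale (SE, adjusted p = 0.0421 by edgeR). SPRED2 had 128.3, 125.3 and 131.5 CPM in NOZ-R, against 112.4, 121.0 and 115.5 CPM in NOZ. Its ranges did not overlap, at 0.14 ± 0.0578 on the log2 scale (SE, adjusted p = 0.0479 by edgeR). The 75 tested genes within 5 Mb of SPRED1 had a median log2 fold change of 0.19, and the 394 on its chromosome 0.08. For SPRED2 the 46 within 5 Mb had a median of 0.06, and the 844 on its chromosome 0.19. Their part in the results was not tested.

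Both SPRED calls sat at the threshold. With library size alone the log2 fold changes were 0.04 for SPRED1 and 0.01 for SPRED2 (edgeR adjusted p = 0.588 and 0.860). Of 19 alternative settings, SPRED1 lost its call in 9 and SPRED2 in 17. Leaving out NOZ replicate 1, NOZ replicate 3, NOZ-R replicate 2 or NOZ-R replicate 3 ended both calls, so that 1 of the 10 genes was then higher.

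ETV4 and ETV5, ETS factors of the PEA3 group that act as effectors of ERK in growth and invasion, both fell. ETV4 (chromosome 17, 43527844 to 43579620, minus strand) had 40.8, 43.9 and 39.1 CPM in NOZ-R, against 66.7, 61.0 and 70.2 CPM in NOZ. The NOZ-R libraries were all lower, by -0.68 ± 0.0761 on the log2 scale (SE, adjusted p = 4.18e-06 by edgeR). ETV4 shares 68 of its 3607 exon bases with DHX8 on the opposite strand, and no strand-marking step is described, so reads there cannot be told apart. DHX8 averaged 134.2 CPM in NOZ-R and 133.3 CPM in NOZ, a difference of 0.01 on the log2 scale (adjusted p = 0.897 by edgeR).

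ETV5 (chromosome 3, 186046308 to 186110318, minus strand) had 138.0, 137.3 and 133.4 CPM in NOZ-R, against 175.7, 147.7 and 169.8 CPM in NOZ. The lines did not overlap, and NOZ replicate 2 was the nearest to NOZ-R. The difference was -0.27 ± 0.0677 on the log2 scale (SE, adjusted p = 0.00344 by edgeR). ETV5 shares 164 of 5802 exon bases with DGKG, which averaged 1.66 CPM in NOZ-R and 0.221 CPM in NOZ.

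Ratios between family members within a library need no scaling factor and show the same contrasts. The SPRY2 to SPRY4 ratio of FPKM (counts scaled to gene length and library total) was 0.968, 1.03 and 0.991 in NOZ-R, against 3.32, 3.20 and 3.35 in NOZ. SPRY2 was thus about level with SPRY4 per length in NOZ-R and the more abundant of the pair in NOZ. The DUSP5 to DUSP6 ratio averaged 0.181 ± 0.00351 in NOZ-R and 0.517 ± 0.0427 in NOZ, and the ETV4 to ETV5 ratio 0.497 ± 0.0239 in NOZ-R and 0.660 ± 0.0319 in NOZ (SD, n = 3 each). For these pairs the lines did not overlap. The DUSP4 to DUSP6 ratio, 1.97 ± 0.0804 in NOZ-R and 1.995 ± 0.144 in NOZ, and the SPRED1 to SPRED2 ratio, 1.48 ± 0.110 in NOZ-R and 1.45 ± 0.0636 in NOZ, overlapped between the lines (SD, n = 3 each).

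**Figure D3:**
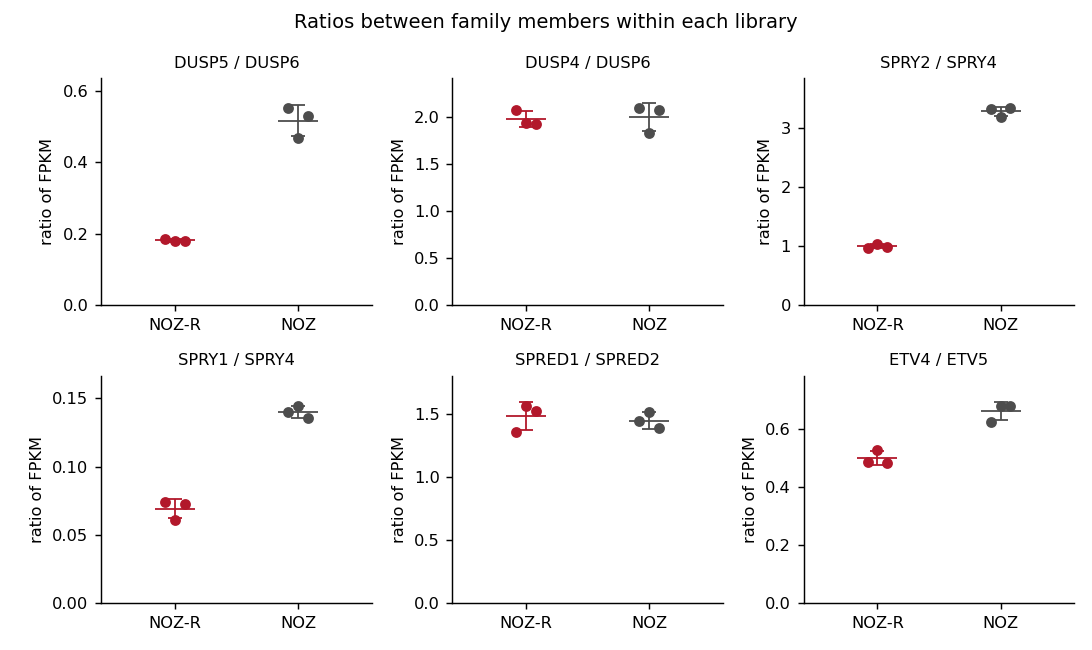
Ratio of FPKM of 2 family members within each library, 1 point per library, NOZ-R left of NOZ, with means and SD of 3 libraries and axes from 0. SPRY2/SPRY4, SPRY1/SPRY4, DUSP5/DUSP6 and ETV4/ETV5 are lower in every NOZ-R library, and DUSP4/DUSP6 and SPRED1/SPRED2 overlap.

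The order of levels per length changed in its middle. In NOZ-R the FPKM order was DUSP4 at 164.6, DUSP6 at 83.5, SPRED1 at 32.8, SPRY4 at 30.3, SPRY2 at 30.2, ETV5 at 22.5, SPRED2 at 22.2, DUSP5 at 15.1, ETV4 at 11.2 and SPRY1 at 2.10. The library ranges of SPRED1 and SPRY4, of SPRY4 and SPRY2, and of ETV5 and SPRED2 overlapped, so those neighbours do not differ beyond their spread. In NOZ the order was DUSP4 at 190.1, DUSP6 at 95.5, SPRY2 at 75.1, DUSP5 at 49.3, SPRED1 at 31.8, ETV5 at 29.7, SPRY4 at 22.8, SPRED2 at 21.98, ETV4 at 19.6 and SPRY1 at 3.20. There the ranges of SPRED1 and ETV5 and of SPRY4 and SPRED2 overlapped.

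DUSP5 took the eighth place in NOZ-R and the fourth in NOZ, and SPRY2 the fifth in NOZ-R and the third in NOZ, while DUSP4 and DUSP6 led in both lines. DUSP4 made up 39.4% to 40.4% of the summed FPKM of the 10 genes in NOZ-R and 34.4% to 36.0% in NOZ. FPKM here carries no correction for composition, and the lengths it implies (7273 bases for DUSP4, 2535 for DUSP5) are fixed per gene, whichever isoform is expressed.

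The genes whose profile over the 6 libraries was most like that of DUSP5, the member with the largest change, were SBK1, ABLIM1, GAB2, AGR2 and CDKN2B-AS1. Likeness was the root mean square difference of centred log2 CPM, which ran from 0.0550 for SBK1 to 0.0665 for CDKN2B-AS1. With 2 groups of libraries this mainly matches genes by the size of their fall, from -1.52 to -1.68 on the log2 scale. ABLIM1 lies on chromosome 10, as DUSP5 does, and the other 4 on other chromosomes.

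Of the 3 family paralogs outside the set, ETV1 and SPRED3 were tested and both were lower. ETV1, the remaining PEA3-group factor, averaged 146.0 ± 6.49 CPM in NOZ-R and 297.4 ± 17.1 CPM in NOZ (SD, n = 3 each). The difference was -1.03 on the log2 scale (adjusted p = 7.30e-09 by edgeR). With it, all 3 PEA3-group genes were lower in NOZ-R, against 29.8% lower among all tested genes. SPRED3 changed by -0.38, a call lost without NOZ-R replicate 2 (edgeR adjusted p = 0.0118, and 0.0634 without that library), and SPRY3, with no more than 2 counts per library, was not tested.

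Of 6 tested MAP kinase phosphatases outside the set, 3 rose, 1 fell and 2 were not called, against 30.4% higher and 29.8% lower among all tested genes. Their median log2 fold change was 0.54. DUSP10, which acts on JNK and p38, averaged 10.2 ± 1.04 CPM in NOZ-R and 1.20 ± 0.277 CPM in NOZ (SD, n = 3 each), or 3.04 higher on the log2 scale, and 1.62 with limma on log2(FPKM + 1). DUSP1, an immediate early nuclear phosphatase, averaged 36.7 ± 2.77 CPM in NOZ-R and 12.6 ± 1.71 CPM in NOZ (SD, n = 3 each), or 1.53 higher on the log2 scale. DUSP7, a cytoplasmic ERK phosphatase named here outside the rule after its values were seen, was higher at 38.7 CPM in NOZ-R, against 19.3 CPM in NOZ. DUSP16, which acts on JNK and p38, fell by 0.66 on the log2 scale. The ERK phosphatases DUSP5 and DUSP7 thus changed in opposite directions.

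Of 5 tested genes for repressors and ubiquitin ligases of the ETV factors, 3 passed as higher and 0 as lower (median 0.28 on the log2 scale). The share called was near the 60.2% of all tested genes, of which 30.4% were higher and 29.8% lower. ATXN1L, a partner of CIC, averaged 84.8 ± 1.18 CPM in NOZ-R and 58.9 ± 2.44 CPM in NOZ (SD, n = 3 each), 0.52 higher on the log2 scale (adjusted p = 7.17e-06 by edgeR), and ATXN1 rose by 0.34, or 0.21 with library size alone. CIC itself, which represses ETV1, ETV4 and ETV5 until ERK relieves it, rose by 0.28 (edgeR adjusted p = 0.00364) and was named after its value was seen. With library size alone CIC was at 0.15 and not called (edgeR adjusted p = 0.0825), and 2 of the 5 were higher and 1 lower. With limma on FPKM 1 was higher and 1 lower. COP1, a ligase that marks ETV proteins for degradation, was at -0.07 (edgeR adjusted p = 0.419).

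Upstream of the feedback genes the picture was mixed, and the shares called were near the 60.2% of all tested genes for the cascade core, and 5 of 6 for the receptors. Of 6 tested receptor genes 3 were higher and 2 lower, with FGFR3 at 2.66 (2.65 CPM in NOZ-R and 0.383 CPM in NOZ), FGFR1 at 0.68, ERBB3 at -1.65 and MET at -0.67 on the log2 scale. With limma on log2(FPKM + 1) FGFR3 was at 0.49, FGFR1 at 0.37, ERBB3 at -0.67 and the adaptor GAB1 at 0.65, a scale that understates changes of low genes. FGFR3 was at 3.25 without NOZ replicate 1 and at 2.19 without NOZ replicate 3. Its counts in NOZ replicates 1, 2 and 3 were 13, 9 and 0. MET averaged 620.9 ± 34.0 CPM in NOZ-R and 989.8 ± 97.6 CPM in NOZ (SD, n = 3 each). Of 16 tested genes of the cascade core, from adaptors to ERK, 6 rose, 4 fell and 6 were not called (median 0.12). In the edgeR fit GAB1 rose by 2.49, at 8.67 CPM in NOZ-R and 1.55 CPM in NOZ, and the adaptor SHC1 by 0.91. The exchange factor SOS2 and the kinase BRAF changed by -0.67 each.

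Among 9 tested brakes outside the set, 1 passed as higher and 5 as lower (median -0.20). The share called was near the 60.2% of all tested genes, with 30.4% higher and 29.8% lower. ERRFI1, a feedback inhibitor of EGFR, averaged 1387 ± 19.5 CPM in NOZ-R and 887.1 ± 12.1 CPM in NOZ (SD, n = 3 each), 0.64 higher on the log2 scale (adjusted p = 2.65e-08 by edgeR). PEBP1 changed by -0.71 and the RAS inactivator RASA2 by -0.54. The count of lower genes was 3 without NOZ-R replicate 1 and 3 without NOZ-R replicate 2.

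Other transcripts that ERK is known to raise mostly went up. Of 8 tested, 6 rose and 2 fell (median 0.47), against background shares of 30.4% and 29.8%. The stress-response gene IER3 rose by 1.20 and the ephrin receptor EPHA2 by 0.96, at 402.8 ± 11.7 CPM in NOZ-R and 207.7 ± 24.0 CPM in NOZ (SD, n = 3 each). EPHA4 changed by -0.68 and PHLDA1, a pleckstrin-homology protein, by -0.25 on the log2 scale. Over all 7 lists, 22 of 52 tested genes rose and 16 fell (median 0.10), against the same background shares of 30.4% higher and 29.8% lower.

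**Figure D4:**
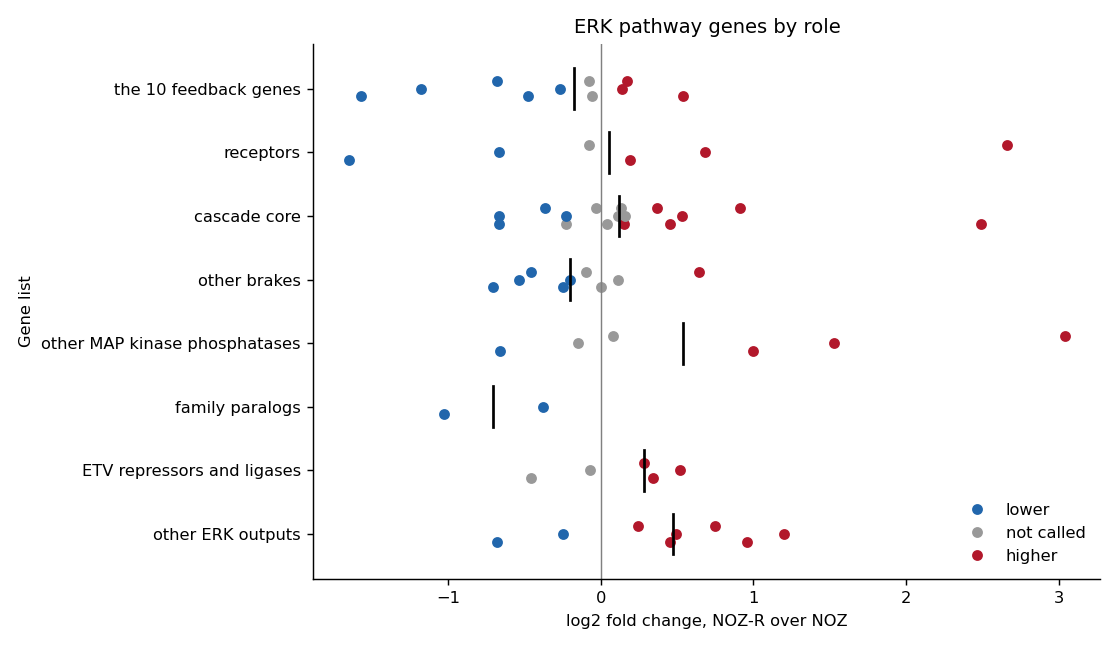
Log2 fold change of NOZ-R over NOZ for the 10 feedback genes and for 7 lists of related genes, 1 point per tested gene, coloured by call; black bars are medians. The feedback genes spread from -1.57 to 0.54 with a median of -0.18, and the other ERK outputs have a median of 0.47.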

How the data were processed

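The authors deposited raw counts per gene and FPKM values for 6 libraries. In the deposited FPKM table each value is the count divided by the library total and 1 fixed length per gene. The submitters' processing notes name fastp 0.22.0 and GRCh38. Which aligner, counting tool, strand setting and annotation were used is not given in the sources used here. Libraries were poly-A selected, per the labels' protocols. Positions, exons and transcript GC content came from GENCODE release 29, matched by symbol (GC for 87.1% of tested genes).

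Counts were filtered with filterByExpr, scaled with TMM (NOZ-R factors 0.954 to 0.961, NOZ factors 1.04 to 1.05), then tested with edgeR 4.0.16 in R 4.3.3. CPM uses TMM-scaled library sizes, except for marker sums, which use total counts. SE is the size of the log2 fold change over the square root of F. Alternatives used limma 3.58.1 and DESeq2 1.42.0. In 5 simulated draws of the NOZ-R and NOZ comparison over 14386 genes, 59.3% of log2 changes of 0.5 were recovered. Of log2 changes of 1 estimated in their true direction, 82.8% were recovered. Of all calls, 3.90% were false. Few genes were changed in each draw, whereas 60.2% of tested genes were called in the data. These rates need not hold for the real fit. The members, lists and alternatives were chosen with earlier results of these data known. All members were named. From each other list up to 2 increases and 2 decreases past the test, by size, were named, and the 5 genes with the profile closest to that of the most changed member.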

Additional observations from a re-analysis of the deposited data

How the results depend on the processing

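Across 19 alternatives DUSP5 and SPRY2 kept their direction and call, with log2 fold changes of -1.74 to -1.53 and -1.31 to -1.16. SPRY1, SPRY4, ETV4 and ETV5 lost theirs only in the test against a 2-fold change. That test called 1289 genes, 0 members higher and 2 lower, and 4 pathway genes higher and 1 lower, by its construction. No direction reversed for the 10 members, or for the paralogs and pathway genes named as higher or lower. COP1, DHX8, DGKG, the markers and the genes most like DUSP5 were not rerun under the alternatives. The members higher numbered 1 with library size only, 1 with limma on log2(FPKM + 1), 1 with limma on log2(FPKM + 0.1) and 1 at an adjusted p under 0.01. In the first 3 of these the scaling carries no composition correction. Leaving out 1 library gave 7851 to 8962 called genes, 1 to 3 members higher and 5 to 6 lower, and 21 to 23 pathway genes higher and 13 to 17 lower. The labels state no pairing, and deviations of libraries with the same replicate number correlated at 0.0682, -0.0224 and -0.0365. With 3 libraries per line these values cannot decide whether the samples were paired. With the replicate number as a block, 8504 genes were called, 2 members were higher and 5 lower, with SPRED2 lost (edgeR adjusted p = 0.0764). With GC correction and the replicate block together, 2 were higher and 7 lower. Depth limits SPRY1 most, and counting error alone is larger there than for the other members.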
